A study of Mus musculus with 12 samples.

Results

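The genes described here are 46 mouse genes of the step from G1 into S phase and of DNA replication, named by symbol and grouped by role. They comprise 10 genes of origin licensing, 7 of origin firing, 4 of DNA polymerase alpha and primase, 5 of polymerases delta and epsilon, and 5 of the sliding clamp and its loader. A further 4 encode single-strand binding and Okazaki fragment proteins, 3 supply nucleotides, 4 regulate the G1/S step, 3 serve chromatin assembly and histone mRNA, and 1 protects the fork. All 46 were found among the 19752 genes measured, on 49 of the 24922 probe sets of the array. Their levels were followed in activated CD4+ T cells across 4 groups with and without IL-12.

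Replication begins when the origin recognition complex, Cdc6 and Cdt1 load the Mcm2-7 helicase onto DNA in G1. Cyclin E with its kinase and the Cdc7-Dbf4 kinase then switch the loaded helicase on, with Cdc45 and the GINS complex as its partners, and the polymerases, clamp and nucleotide enzymes follow. Many of these genes are known targets of E2F transcription factors, which are released as T cells leave quiescence after stimulation through the T cell receptor and CD28.

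Per the labels, CD4+ T cells were prepared from the spleens of 6-week-old C57BL/6 males by removal of the other cells, a selection that can leave some of those behind. All cells were stimulated for 48 h with beads against CD3 and CD28, so no group is resting. After that, 5 samples received IL-12, a cytokine of antigen-presenting cells that favours the Th1 fate, at 100 U/ml for 2 h and 4 samples received it for 8 h, while 2 samples stayed untreated for 2 h and 1 is labelled baseline with no culture time. RNA was measured on Affymetrix mouse gene arrays with 1 array per sample. The labels do not say whether samples came from separate or pooled animals or cultures, so the p-values speak only to the spread among these samples, and that spread may be technical.

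Sample titles carry numbers whose meaning no label gives. IL-12 2 h arrays are numbered 2, 3, 4, 5 and 6, IL-12 8 h arrays 2, 3, 5 and 6, untreated arrays 7 and 8, and the baseline array 5. Arrays of the same group correlated across all genes at a median r of 0.998 within numbers 2 to 4 or within 5 to 8, and at 0.992 between these runs of numbers, genes not being independent replicates. All tests below therefore hold a term for the number run, and the values within each run are given beside them. For the baseline array, although it is numbered 5, the median r was higher with numbers 2 to 4 (0.993) than with the rest of its own run (0.989). In bulk RNA, fewer cells of a type and less RNA per cell cannot be told apart.

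The promoters of these genes are shown because E2F-type letters were present in a larger share of them than of all genes. RefSeq windows (GRCm38.p6, from 250 bases before to 50 bases after each start) existed for 38 of the 46 genes. The letters searched were TTTCCCGC, TTTCGCGC, TTTGCCGC and TTTGGCGC on both strands. At least 1 of them was present in 15 of 38 replication genes (39.5%), against 2.6% of 27025 genes with a window, 29.8% of 57 other genes of the same pathway and 5% of 20 G2/M and mitosis genes. In 8 of the 15 a match began before the start, and in 7 it lay only after it. CCAAT, the letters bound by the factor NF-Y, was present in 57.9% of the replication genes, 41.1% of all genes and 85% of the G2/M genes. These matches describe the letters and are not measured binding sites. The stretches below run 5′ to 3′ on the gene's strand, and capitals mark the E2F-type matches, which in Mcm5 and Mcm6 overlap on opposite strands:
Mcm5 (chr8:75109332-75109391, plus strand): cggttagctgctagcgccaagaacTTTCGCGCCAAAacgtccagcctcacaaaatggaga
Mcm6 (chr1:128359780-128359839, minus strand): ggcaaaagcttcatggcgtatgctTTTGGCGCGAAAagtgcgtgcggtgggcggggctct
Gins3 (chr8:95633492-95633551, plus strand): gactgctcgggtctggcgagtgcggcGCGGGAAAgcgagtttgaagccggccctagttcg
Rfc3 (chr5:151651209-151651268, minus strand): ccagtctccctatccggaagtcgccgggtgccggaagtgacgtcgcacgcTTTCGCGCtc
Cdc6 (chr11:98908002-98908031, plus strand): gccggtggagaGCGGGAAAtcgcctggggt
Pola1 (chrX:93632275-93632304, minus strand): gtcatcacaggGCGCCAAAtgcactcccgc
Orc1 (chr4:108579416-108579445, plus strand): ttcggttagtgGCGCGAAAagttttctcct

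All 46 replication genes were brighter than the median gene on all 12 arrays. Their log2 intensities lay between 8.56 and 13.28, while the median gene stood at 7.37. Pcna, Tk1 and Slbp had 2 probe sets each, and the one with the higher mean stood for the gene. Both Pcna probe sets gave means of 13.2, and whether they report separate transcripts or near-identical copies was not tested. The 6 of 8 listed CD4 T cell markers that were found (Cd3e, Cd3d, Cd3g, Cd4, Cd28 and Cd5) were above the array median on all arrays, with means per array between 11.96 and 12.22. Differences are log2 changes ± SE from limma, called at an adjusted p under 0.05 over all 19752 genes, with a median SE for the 46 genes of 0.09 against untreated cells and 0.06 between the IL-12 groups.

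**Figure D1:**
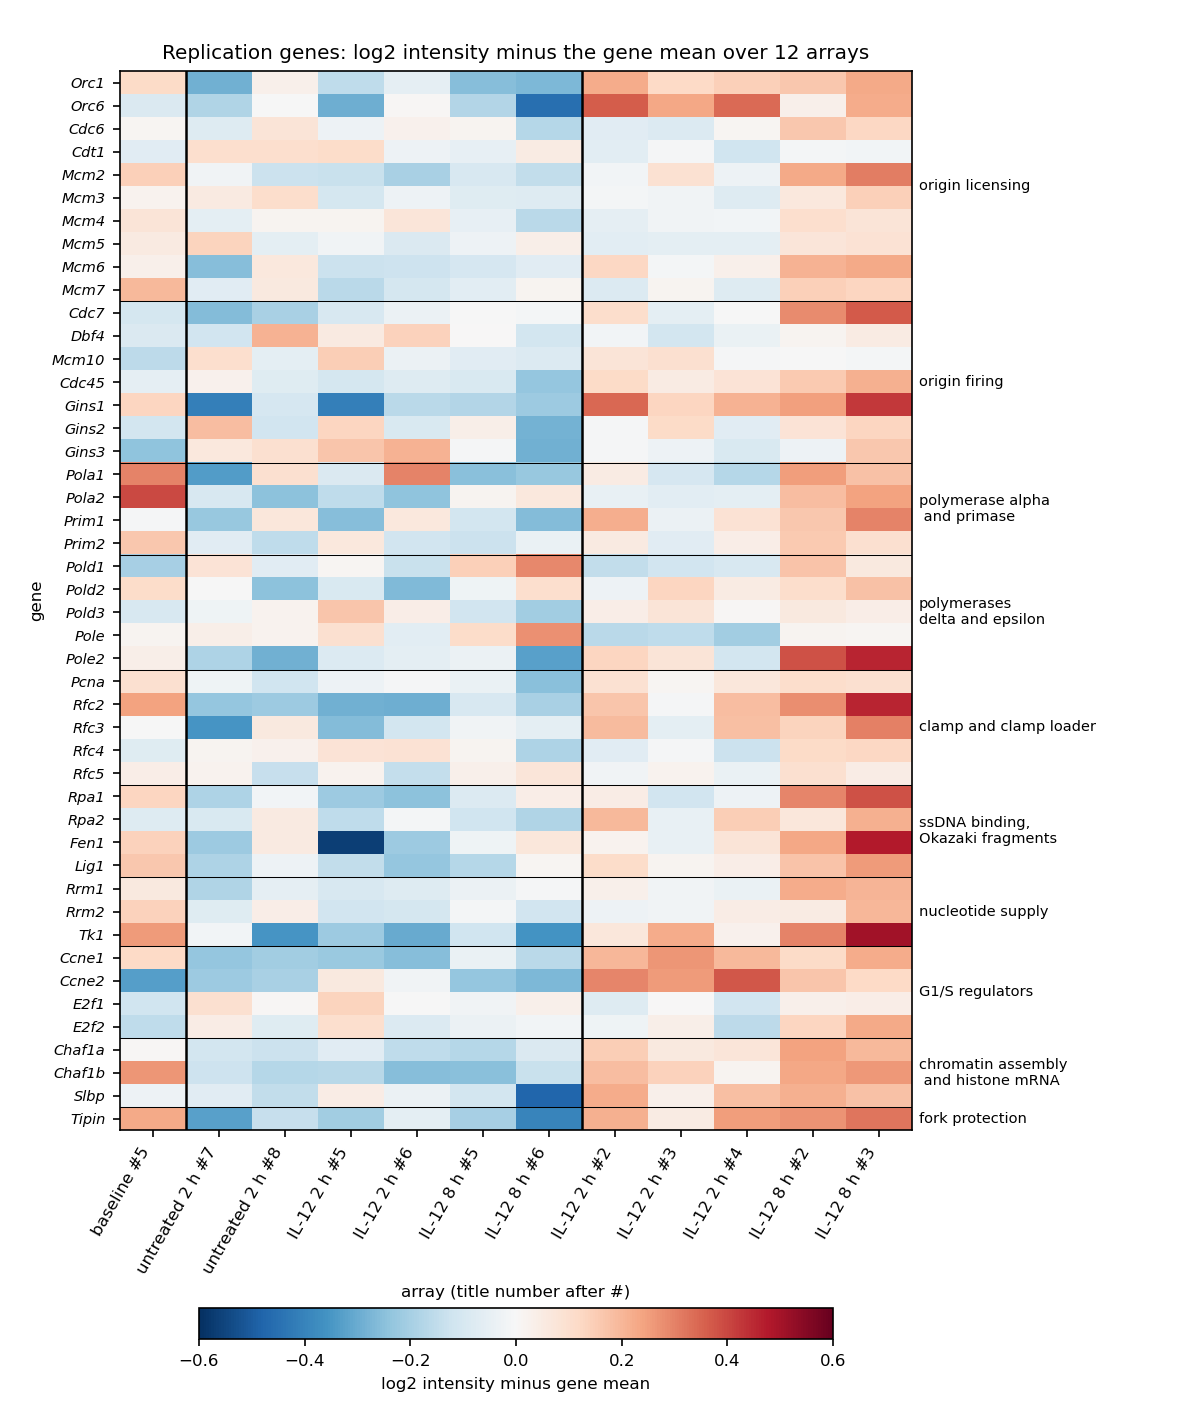
Log2 intensity of each replication gene (rows, grouped by role) on each array (columns), minus that gene's mean over the 12 arrays; the first block is the baseline array, the second the other arrays numbered 5 to 8 and the third the arrays numbered 2 to 4. In 15 of the 46 genes every IL-12 array numbered 2 to 4 lay above every IL-12 array numbered 5 or 6, and the deepest reds are in IL-12 8 h array 3.

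Cells with IL-12 for 2 h (n = 5) were compared with untreated cells at the same time (n = 2) to ask what IL-12 does to these genes early. No replication gene passed the test in either direction, where limma called 0.0709% of all genes higher and 0% lower. The changes of the 46 genes ran from -0.29 to 0.20 with a median of -0.03, beside a median of -0.003 over all genes, and 34 of 46 were negative. At an unadjusted p under 0.05, 1 gene was higher, beside 2.73% of all genes, and 2 were lower, beside 2.19%. All 10 licensing genes and all 4 single-strand binding and Okazaki fragment genes had negative values in this fit, with medians of -0.08 and -0.13. Within numbers 5 to 8, 8 of the 10 licensing genes were negative, Orc1 and Mcm4 being positive, and all 4 of the other role. The 6 CD4 T cell markers were also all negative, with a median of -0.11 and none called. Within numbers 5 to 8, the only run with untreated arrays, the median of the 46 was -0.01 with 27 of 46 negative, and without the run term the fitted median was 0.06.

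The gene nearest to the threshold was Ccne2, a cyclin E gene that activates Cdk2 at the G1/S step. It stood at log2 intensities of 10.20 and 10.22 in untreated arrays 7 and 8, at 10.71, 10.67, 10.79, 10.48 and 10.40 in IL-12 2 h arrays 2, 3, 4, 5 and 6, and at 10.58, 10.54, 10.18 and 10.15 in IL-12 8 h arrays 2, 3, 5 and 6. All 5 arrays with 2 h of IL-12 lay above both untreated arrays, also within numbers 5 to 8, where the difference was 0.23. The fitted difference was 0.20 ± 0.07 (limma adjusted p = 0.913), so it was not called, and without the run term it was 0.40.

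Fen1, the nuclease that trims the flaps of Okazaki fragments, stood at 9.38 and 9.65 in the untreated arrays, at 9.62, 9.56, 9.68, 9.04 and 9.38 with IL-12 for 2 h, and at 9.83, 10.08, 9.57 and 9.67 with IL-12 for 8 h, in the same order of arrays. The 2 h value of array 5 was the lowest of all, and the 2 h and untreated groups overlapped. The difference at 2 h was -0.29 ± 0.12 (limma adjusted p = 0.969). Leaving out untreated array 8 gave -0.15, leaving out array 5 of the IL-12 2 h group gave -0.18, and the fit without the run term gave -0.06. Rpa1, the large subunit of the single-strand binding protein RPA, stood at 10.52 and 10.69 untreated, at 10.75, 10.59, 10.68, 10.49 and 10.46 at 2 h, and at 11.00, 11.09, 10.63 and 10.75 at 8 h. Both 2 h arrays of numbers 5 to 8 were below both untreated arrays, while those of numbers 2 to 4 were not, and the difference of -0.17 ± 0.09 had a limma adjusted p of 0.999. Without untreated array 8 it was -0.09, and without the run term -0.01. Mcm3, a helicase subunit, stood at 11.32 and 11.37 untreated and at 11.25, 11.24, 11.19, 11.16 and 11.23 at 2 h. Here all 5 IL-12 2 h arrays lay below both untreated arrays, and the difference was -0.19 ± 0.08 (limma adjusted p = 0.969). The baseline array, also without IL-12, stood at 11.28, below both untreated arrays too.

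Counted by overlap within numbers 5 to 8, both IL-12 2 h arrays lay above both untreated arrays in 7 of the 46 genes (Cdc7, Gins3, Pold3, Pole2, Rfc4, Ccne2 and Slbp), which is 15.2% beside 12.9% of all genes. They lay below in another 7 (Mcm2, Mcm3, Mcm7, Cdc45, Rfc2, Rpa1 and Rrm2), beside 16.5% of all genes. Both shares were near that of all genes.

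**Figure D2:**
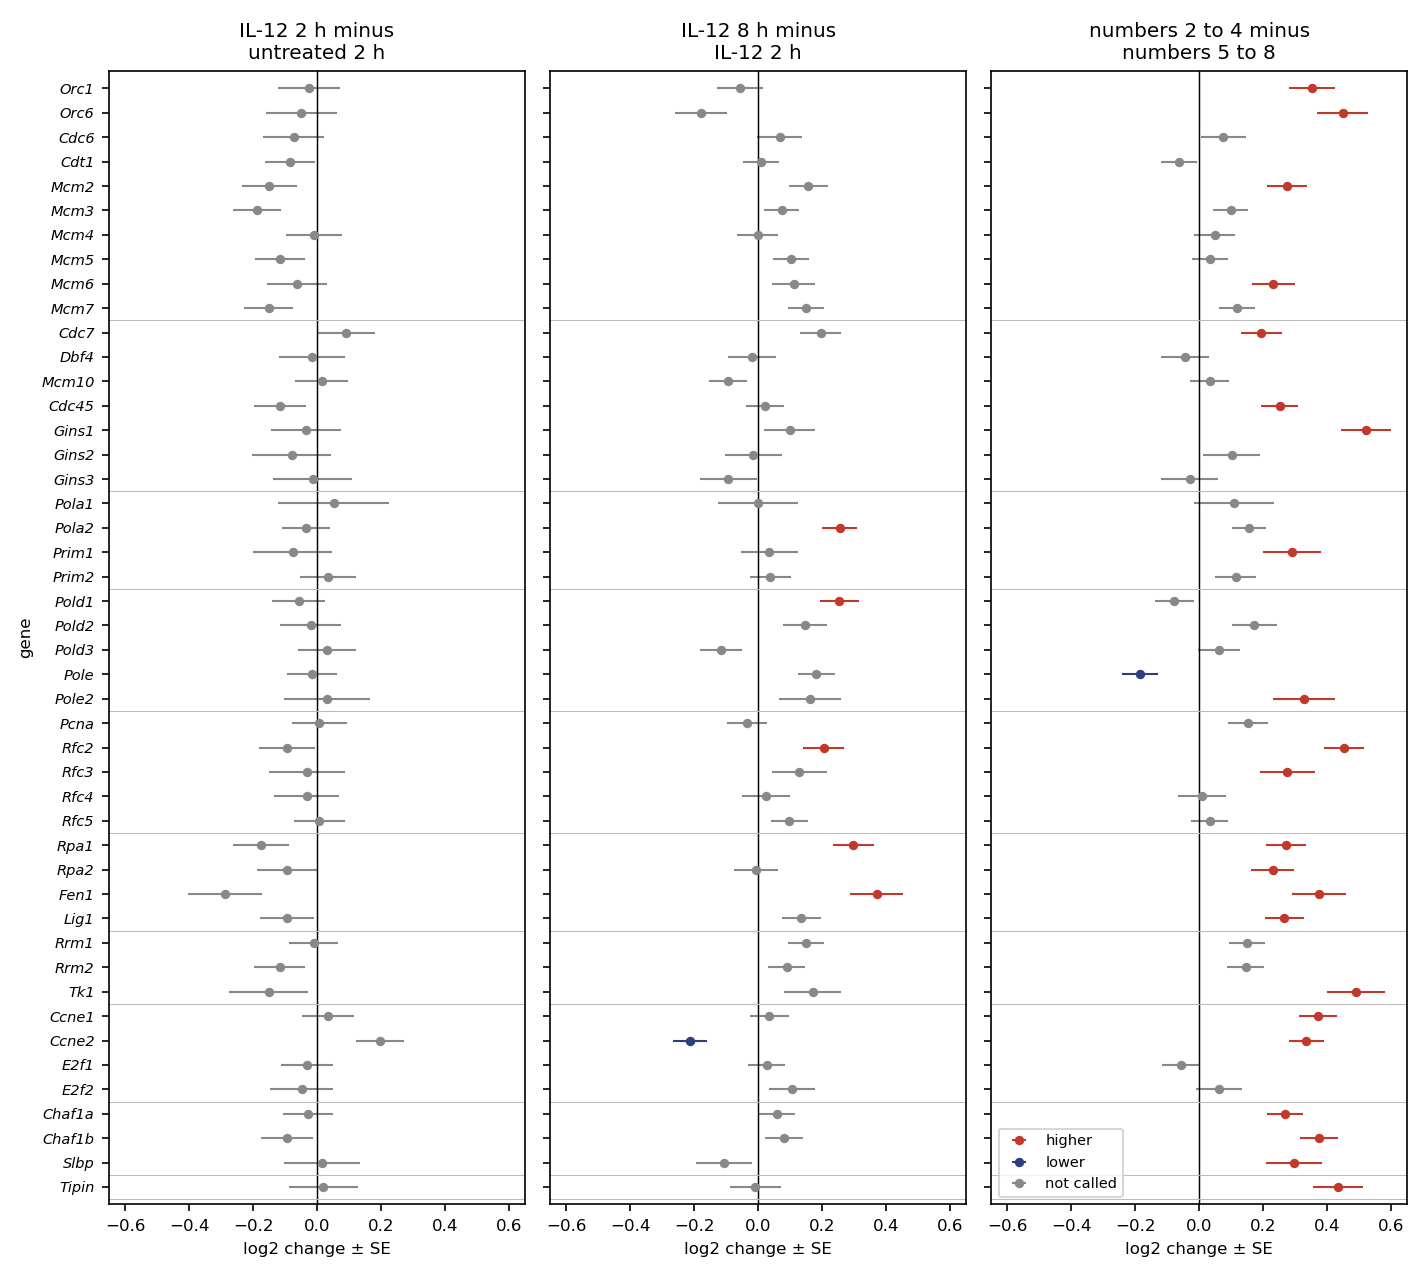
Log2 change ± SE (horizontal axis) of each replication gene (vertical axis, grouped by role) in 3 comparisons of the limma model; red marks genes called higher, blue genes called lower and grey genes not called. No gene is coloured for IL-12 2 h against untreated cells, 5 are red and 1 blue for 8 h against 2 h of IL-12, and 22 are red and 1 blue between the number runs.

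Between 2 h (n = 5) and 8 h (n = 4) of IL-12, the only comparison that both number runs hold, 40 of the 46 genes were not called. Limma called 5 of the 46 genes higher at 8 h, beside 6.27% of all genes, and 1 lower, beside 6.36%. Whether these counts differ from the shares of all genes was not tested. The 5 were Fen1, Rpa1, Pola2, Pold1 and Rfc2, each by 1.29-fold or less, and the 1 was Ccne2. The median over the 46 genes was 0.07, with 32 positive and 14 negative. Time in culture and time with IL-12 differ together here, and there is no untreated sample at 8 h.

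Cell markers moved in this comparison too. All 6 CD4 T cell markers were positive with a median of 0.18, and Cd3d (0.30) and Cd28 (0.24) were called higher. Their mean per array was 11.96 to 12.07 at 2 h and 12.17 to 12.22 at 8 h, without overlap. Of 7 B cell markers 6 were negative and Ebf1 was called lower, with means of 7.06 to 7.47 at 2 h and 6.99 to 7.35 at 8 h. Of 5 NK cell markers Ncr1 was called higher and Klrb1c lower, with means of 5.33 to 5.75 and 5.23 to 5.67. Of 3 erythroid and platelet markers Klf1 was called higher, with means of 7.21 to 7.74 and 7.22 to 7.91. Ebf1, Ncr1, Klrb1c and Klf1 lay below the array median on every array. None of the 14 macrophage, 6 dendritic, 6 neutrophil and 2 CD8 T cell markers was called. The part of these markers in the changes of the replication genes was not tested.

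Fen1 rose 1.29-fold (0.37 ± 0.08, limma adjusted p = 0.00926), and by 0.34 and 0.41 within numbers 2 to 4 and 5 to 8. Rpa1 rose 1.23-fold (0.30 ± 0.06, limma adjusted p = 0.00668), with 0.37 and 0.21 within the runs. In both genes, whose values are given above, every 8 h array lay above every 2 h array of its own run, and the groups overlapped only across runs. The baseline array, without IL-12, stood at 9.74 for Fen1 and 10.84 for Rpa1. In both genes that was above IL-12 8 h arrays 5 and 6 and below IL-12 8 h arrays 2 and 3. The promoter stretch of Rpa1 (chr11:75348409-75348438, minus strand, RefSeq GRCm38.p6) is shown because it alone of the risers with a window held CCAAT, here in capitals:
Rpa1: tgccgcgcggtagCCAATgcggtggctatc
Of the 5 genes that rose, 4 had a window, and an E2F-type match was present in 1 of them, Pold1, where it begins 40 bases after the start.

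Pola2, the subunit that links polymerase alpha to its partners, stood at 10.57, 10.55, 10.55, 10.46 and 10.37 in IL-12 2 h arrays 2, 3, 4, 5 and 6 and at 10.80, 10.85, 10.63 and 10.68 in IL-12 8 h arrays 2, 3, 5 and 6. All 8 h arrays lay above all 2 h arrays, whatever their number, and the rise was 1.19-fold (0.26 ± 0.05, limma adjusted p = 0.00654; 0.27 and 0.24 within the runs). Pold1, the catalytic subunit of polymerase delta, stood at 10.53, 10.56, 10.58, 10.69 and 10.54 at 2 h and at 10.85, 10.73, 10.82 and 10.97 at 8 h. Again no 8 h array reached down to a 2 h array, and the rise was 1.19-fold (0.25 ± 0.06, limma adjusted p = 0.0129; 0.23 and 0.28 within the runs).

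Rfc2, a subunit of the complex that loads the clamp, stood at 9.89, 9.71, 9.91, 9.44 and 9.43 at 2 h and at 10.003, 10.18, 9.63 and 9.53 at 8 h. The 8 h arrays lay above the 2 h arrays of their own run and the groups overlapped across runs; the rise was 1.15-fold (0.20 ± 0.06, limma adjusted p = 0.0483). Ccne2, in contrast, fell 1.16-fold (-0.21 ± 0.05, limma adjusted p = 0.0186; -0.17 and -0.27 within the runs), and its 8 h arrays were below the 2 h arrays of their own run in both runs. In arrays numbered 5 and 6 its 8 h values of 10.18 and 10.15 were below the untreated values. With the title number as a replicate block in place of the run, over numbers 2, 3, 5 and 6, limma called 1 of the 46 genes, Fen1. Without IL-12 8 h array 3, 3 were called (Pola2, Pold1 and Rpa1). Ccne2 was also lost without IL-12 2 h array 4 or 5, Pold1 without IL-12 8 h array 2, and Rfc2 when any IL-12 array other than 8 h array 6 was left out.

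**Figure D3:**
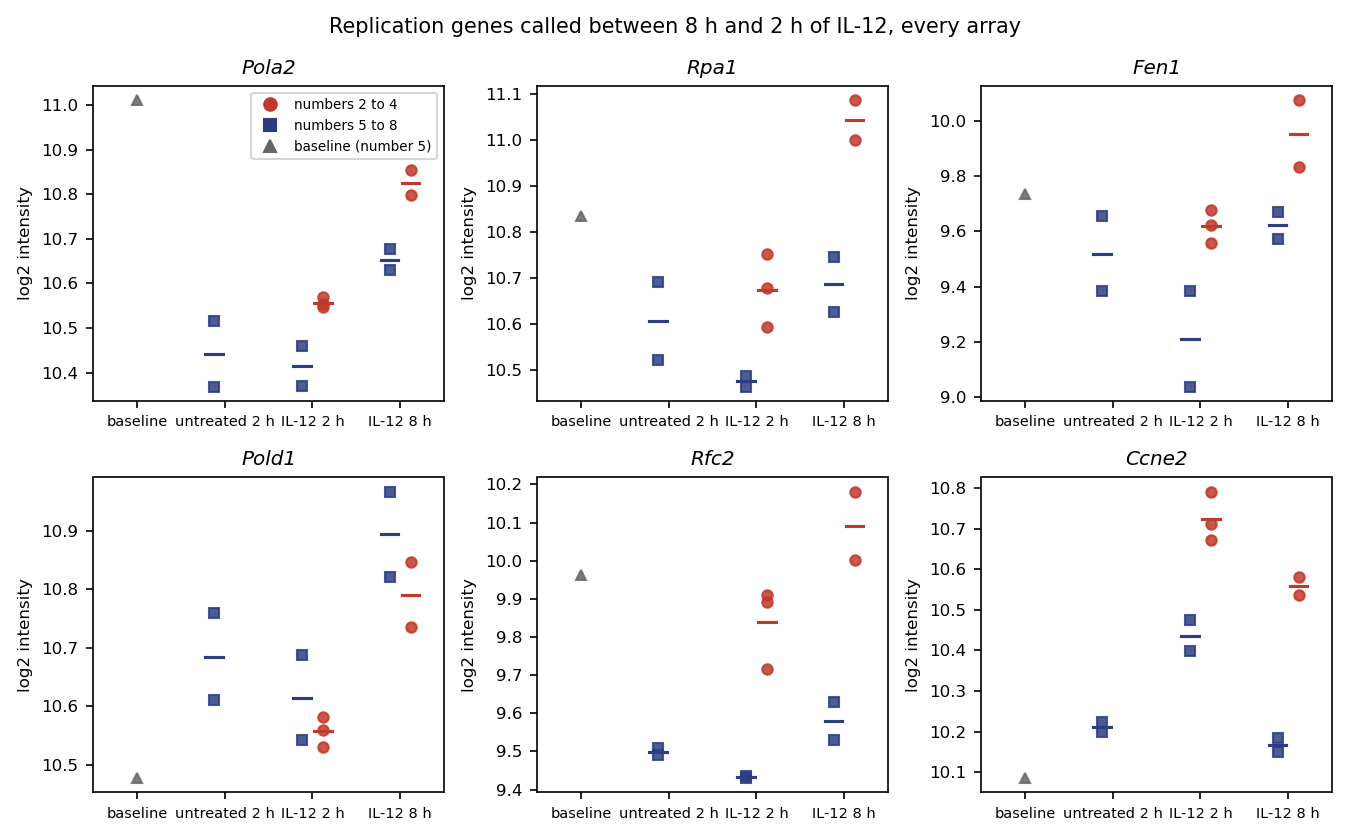
Log2 intensity (vertical axis, own scale per panel) on every array of the 6 genes called between 8 h and 2 h of IL-12, by group (horizontal axis); red circles are arrays numbered 2 to 4, blue squares those numbered 5 to 8, the grey triangle the baseline array, and bars the means of a group within a run. In Pola2 and Pold1 all IL-12 8 h arrays lie above all IL-12 2 h arrays, and in Ccne2 the 8 h arrays lie below the 2 h arrays of the same run.

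No other gene of any role was called at 8 h against 2 h. Among the 10 licensing genes the changes ran from -0.18 for Orc6, of the origin recognition complex, to 0.16 for Mcm2, a helicase subunit, with 7 positive. The 7 firing genes ran from -0.09 to 0.20, the highest being Cdc7, the kinase that acts with Dbf4 (limma adjusted p = 0.0655). Pole, the catalytic subunit of polymerase epsilon, had 0.18 ± 0.06 (limma adjusted p = 0.0511), just outside the threshold. The 3 nucleotide supply genes, Rrm1 and Rrm2 of ribonucleotide reductase and the thymidine kinase gene Tk1, had 0.15, 0.09 and 0.17. Chaf1a and Chaf1b, which place histones on new DNA, had 0.06 and 0.08, the histone mRNA binding gene Slbp had -0.11, and Tipin, a fork protection gene, had -0.01. Ccne1, E2f1 and E2f2, the other G1/S regulators, had 0.04, 0.03 and 0.11.

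The change from 2 h to 8 h was also read within each number run. Within numbers 2 to 4, 42 of the 46 genes had a positive difference and the median was 0.13, while all genes had a median of -0.02. Every 8 h array lay above every 2 h array in 31 genes (67.4%), beside 21.6% of all genes, and below in 2, Orc6 and Ccne2, beside 22.1%. Within numbers 5 to 8 the median was -0.03 and 21 of 46 were positive. There every 8 h array lay above every 2 h array in 14 genes (30.4%), beside 21.9% of all genes, and below in 11 (23.9%), beside 20.5%.

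In both runs at once, 11 replication genes had every 8 h array above the 2 h arrays of its run, beside 8.83% of all genes: Mcm6, Mcm7, Cdc7, Pola2, Pold1, Pole, Rfc2, Rfc5, Rpa1, Fen1 and Rrm1. Ccne2 alone lay below in both, beside 8.75%. Fitted on numbers 2 to 4 alone, limma called 10 genes higher, beside 8.65% of all genes, and 0 lower, beside 7.68%, with 2 lower at an unadjusted p under 0.05, beside 13.8%. The 10 were Mcm2, Cdc7, Pola1, Pola2, Pold1, Pole2, Rpa1, Fen1, Rrm1 and Tk1. On numbers 5 to 8 alone, with 2 arrays per group, limma called 0 higher, beside 0.395%, and 0 lower, beside 1.44%, with 3 higher and 4 lower before adjustment (p under 0.05), beside 6.32% and 7.85% of all genes.

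Whether the change from 2 h to 8 h differed between the runs was tested as an interaction over the 9 IL-12 arrays. Limma called 0 replication genes, beside 0.972% of all genes more positive and 0.987% more negative in numbers 2 to 4, with 11 more positive at an unadjusted p under 0.05, beside 8.05% of all genes, and 0 more negative, beside 6.48%. The median difference was 0.15 and 39 of 46 were positive. Pola1, the catalytic subunit of polymerase alpha, stood at 9.99, 9.85, 9.78, 9.86 and 10.24 in IL-12 2 h arrays 2, 3, 4, 5 and 6 and at 10.20, 10.12, 9.69 and 9.72 in IL-12 8 h arrays 2, 3, 5 and 6. The 8 h arrays thus lay above the 2 h arrays in numbers 2 to 4 and below them in numbers 5 and 6, with differences of 0.29 and -0.35 and an interaction of 0.63 ± 0.16 (limma adjusted p = 0.061).

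Pole2, an accessory subunit of polymerase epsilon, stood at 10.45, 10.40, 10.21, 10.24 and 10.26 at 2 h and at 10.70, 10.78, 10.29 and 9.997 at 8 h. Its 8 h arrays 2 and 3 were the highest of all 12, whereas 8 h array 6 was the lowest, and the interaction was 0.50 ± 0.15 (limma adjusted p = 0.117). Gins3, of the GINS complex, stood at 9.88, 9.86, 9.80, 10.06 and 10.10 at 2 h and at 9.86, 10.05, 9.88 and 9.61 at 8 h. The 8 h arrays overlapped with the 2 h arrays in numbers 2 to 4 and lay below them in numbers 5 and 6 (interaction 0.44 ± 0.14, limma adjusted p = 0.138). Rfc4, a clamp loader subunit, stood at 12.33, 12.39, 12.27, 12.48 and 12.48 at 2 h and at 12.51, 12.52, 12.41 and 12.21 at 8 h. It was above in numbers 2 to 4 and below in numbers 5 and 6 (interaction 0.36 ± 0.12, limma adjusted p = 0.163). Without IL-12 2 h array 5 the interaction of Pola1 was called, and without IL-12 8 h array 5 those of Gins3 and Pole2 were.

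**Figure D4:**
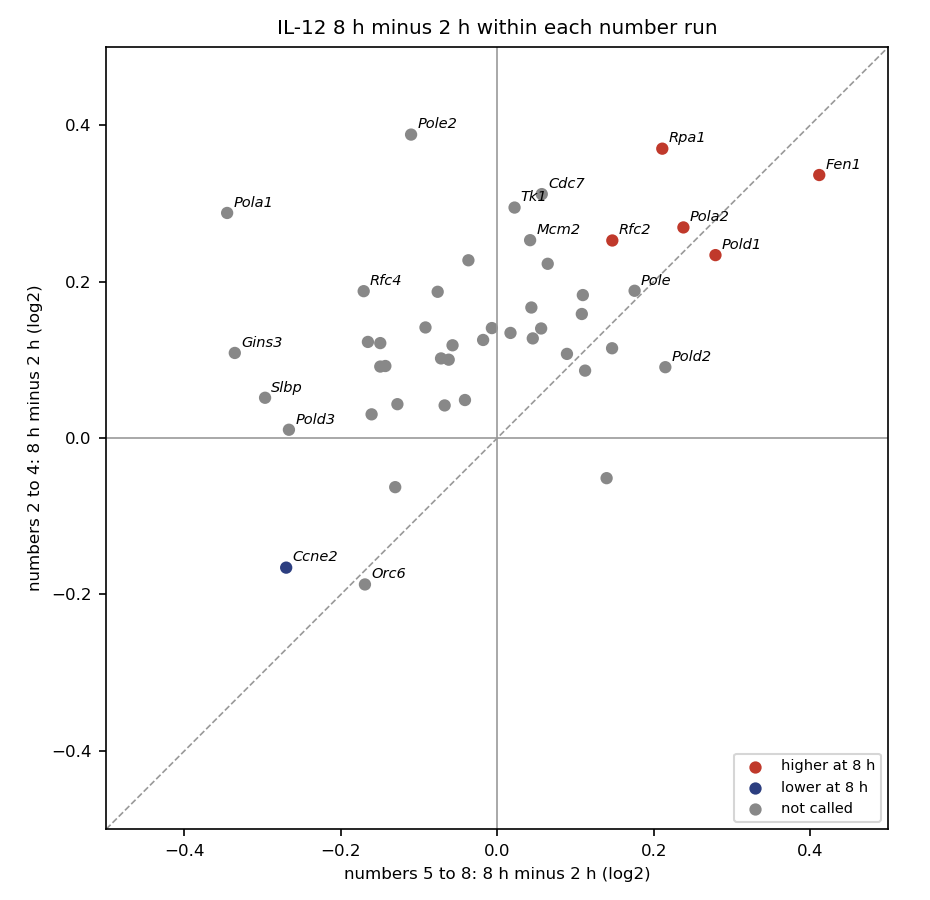
Difference between 8 h and 2 h of IL-12 in log2 intensity for each replication gene within numbers 5 to 8 (horizontal axis) and within numbers 2 to 4 (vertical axis), with the line of equality dashed; colours mark the genes called in the fit over both runs. Most points lie above the dashed line, with Pola1 at -0.35 and 0.29, while Fen1, Rpa1, Pola2, Pold1 and Rfc2 are positive on both axes.

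Against untreated 2 h cells (n = 2), IL-12 for 8 h (n = 4) left 0 of the 46 genes called, beside 1.04% of all genes called higher and 2.13% lower, with 3 higher and 0 lower before adjustment (p under 0.05), beside 7.06% and 7.48%. The 3 are near the share of all genes. This comparison shares its untreated arrays with that at 2 h. The median was 0.003 with 23 positive and 23 negative, and it was -0.05 within numbers 5 to 8 and 0.11 without the run term. Cdc7 stood at 8.56 and 8.63 untreated, at 8.92, 8.76, 8.82, 8.73 and 8.79 at 2 h and at 9.10, 9.19, 8.82 and 8.81 at 8 h. All IL-12 arrays of both times lay above both untreated arrays, and the difference at 8 h was 0.29 ± 0.09 (limma adjusted p = 0.112; 0.22 within numbers 5 to 8). The baseline array, also without IL-12, stood at 8.72, above both untreated arrays and next to the lowest IL-12 array.

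Pola2, at 10.52 and 10.37 untreated, had a difference of 0.22 ± 0.07 (limma adjusted p = 0.152), and all 8 h arrays lay above both; without untreated array 8 it was 0.15. Pold1, at 10.76 and 10.61 untreated, had 0.20 ± 0.08 (limma adjusted p = 0.28), and here 8 h array 3 lay between the untreated arrays; without untreated array 8 it was 0.12. Pole stood at 10.96 and 10.95 untreated, at 10.77, 10.78, 10.72, 11.02 and 10.86 at 2 h and at 10.95, 10.94, 11.04 and 11.20 at 8 h. Its 8 h arrays 5 and 6 lay above the untreated arrays while 8 h arrays 2 and 3 were level with or below them, and the fitted difference was 0.17 ± 0.08 (limma adjusted p = 0.352), and 0.07 without the run term. Of the cell markers, 1 of 5 NK cell markers was called lower at 8 h than in untreated cells.

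More of these genes were called between the number runs than in any comparison of groups. Limma, adjusting for group, called 22 of the 46 genes higher in arrays numbered 2 to 4, beside 11.8% of all genes, and 1 lower, beside 12.5%. Untreated and baseline arrays are all in numbers 5 to 8. The size of the fitted difference therefore comes from the IL-12 arrays alone, numbers 2 to 4 against 5 and 6. The median of the 46 was 0.16 and 40 were positive. Over all genes the median was 0.04, and 11617 of 19752 were positive. Every IL-12 array numbered 2 to 4 lay above every IL-12 array numbered 5 or 6 in 15 genes, beside 8.93% of all genes, and below in 0, beside 7.93%. The median difference between the runs was 0.10 at 2 h and 0.25 at 8 h.

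Every role had at least 1 gene called higher. They were Orc1, Orc6, Mcm2 and Mcm6 of 10 licensing genes, and Cdc7, Cdc45 and Gins1 of 7 firing genes. Among polymerase genes they were Prim1, the catalytic subunit of primase, of 4, and Pole2 of 5. Of the 5 clamp genes Rfc2 and Rfc3 were higher, and all 4 of Rpa1, Rpa2, Fen1 and the DNA ligase gene Lig1. Tk1 was the 1 of 3 nucleotide genes, Ccne1 and Ccne2 were 2 of 4 G1/S regulators, and Chaf1a, Chaf1b, Slbp and Tipin completed the list. Of these 22 genes 18 had a promoter window, with an E2F-type match in 5 (Orc1, Mcm6, Pole2, Rfc3 and Lig1) and CCAAT in 11.

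Rfc2 had the smallest p. Its untreated arrays stood at 9.49 and 9.51, so all 5 arrays numbered 2 to 4 lay above the other 6 outside baseline. The fitted difference was 0.45 ± 0.06 (1.37-fold, limma adjusted p = 0.000171). Gins1, which completes the active helicase, stood at 10.16, 9.94 and 10.02 in IL-12 2 h arrays 2, 3 and 4 and at 10.05 and 10.24 in IL-12 8 h arrays 2 and 3. In arrays numbered 5 to 8 it stood at 9.40 and 9.71 untreated, 9.40 and 9.65 at 2 h and 9.63 and 9.59 at 8 h. Outside the baseline array, which stood at 9.94, the runs did not overlap. The difference was 0.52 ± 0.08 (1.44-fold, limma adjusted p = 0.000328).

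Ccne1, the other cyclin E gene, stood at 11.51, 11.58 and 11.50 at 2 h and 11.43 and 11.53 at 8 h in numbers 2 to 4, against 11.08 and 11.10 untreated, 11.09 and 11.06 at 2 h and 11.27 and 11.15 at 8 h in numbers 5 to 8. Its runs were apart by 0.37 ± 0.06 (limma adjusted p = 0.000512), and those of Ccne2 by 0.34 ± 0.05 (limma adjusted p = 0.000538) with the values given above. In both cyclin E genes all 5 arrays numbered 2 to 4 lay above the other 6 outside baseline. Baseline stood at 11.43 for Ccne1, within the range of numbers 2 to 4, and at 10.09 for Ccne2, below it.

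Chaf1b stood at 10.45, 10.41 and 10.28 at 2 h and 10.50 and 10.53 at 8 h in numbers 2 to 4, against 10.14 and 10.10 untreated, 10.10 and 10.01 at 2 h and 10.02 and 10.13 at 8 h in numbers 5 to 8. Tipin stood at 10.52, 10.35 and 10.55 at 2 h and 10.57 and 10.62 at 8 h, against 9.98 and 10.17 untreated, 10.10 and 10.24 at 2 h and 10.10 and 9.91 at 8 h. Outside the baseline array, which stood at 10.53 for both, neither gene overlapped between the runs. The differences were 0.38 ± 0.06 and 0.44 ± 0.08 (limma adjusted p = 0.000431 and 0.00122).

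Orc6 stood at 11.07, 10.94 and 11.05 at 2 h and 10.74 and 10.93 at 8 h in numbers 2 to 4, against 10.53 and 10.70 untreated, 10.41 and 10.71 at 2 h and 10.53 and 10.26 at 8 h. Tk1 stood at 10.13, 10.29 and 10.09 at 2 h and 10.36 and 10.57 at 8 h, against 10.05 and 9.71 untreated, 9.85 and 9.76 at 2 h and 9.94 and 9.71 at 8 h. In both genes the runs did not overlap outside the baseline array, and they differed by 0.45 ± 0.08 and 0.49 ± 0.09 (limma adjusted p = 0.00118 and 0.0013). Baseline stood at 10.62 for Orc6, below all arrays numbered 2 to 4, and at 10.32 for Tk1, within their range. For Tk1 the probe sets disagreed in size: between the IL-12 arrays of both runs the one used gave 0.473 and the other 0.154.

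Pole was the only gene called lower in numbers 2 to 4, by -0.18 ± 0.06 (limma adjusted p = 0.0303), with the values given above; its runs overlapped. Without IL-12 8 h array 3, 15 of the 46 genes were called between the runs, and Pole was not among them.

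Markers of other cells moved with the number run. Of 14 macrophage and monocyte markers 6 were lower and 1 was higher in numbers 2 to 4, and their mean per array was 6.55 to 6.66 there, 6.85 to 7.08 in numbers 5 to 8 and 6.73 in baseline. Of these 14, 10 lay below the array median on every array. The lysozyme gene Lyz2, their widest mover, stood between 6.66 and 7.28 in numbers 2 to 4, between 8.44 and 9.93 in numbers 5 to 8 and at 7.65 in baseline. Of 7 B cell markers 4 were higher in numbers 2 to 4, with means of 7.31 to 7.47 against 6.99 to 7.19 and 7.57 in baseline. The 3 erythroid and platelet markers found, 2 of them higher, had means of 7.58 to 7.91 against 7.21 to 7.36 and 8.34 in baseline. Lower were 4 of 5 NK cell markers (5.23 to 5.46 against 5.58 to 5.81) and 1 of 2 CD8 T cell markers (7.76 to 7.91 against 8.07 to 8.39). Dendritic cell markers (1 of 6 higher, 1 lower) and neutrophil markers (2 of 6 higher, 1 lower) had overlapping means. Below the array median on every array lay 4 of the 5 NK cell, 5 of the 6 dendritic and 4 of the 6 neutrophil markers. The same held for 3 of the 7 B cell, 1 of the 2 CD8 T cell and 1 of the 3 erythroid and platelet markers. Of 6 CD4 T cell markers 1 was higher and 2 were lower. Their part in the result for the replication genes was not tested. When the mean of the macrophage markers entered the model, a covariate that separates the same arrays as the number run, 0 of the 46 genes were called between the runs and the median was 0.11.

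The baseline array, the 1 sample with no culture time, was compared with the 2 untreated arrays, and its spread is taken from the other groups. In untreated cells limma called 3 of the 46 genes lower than at baseline, beside 3.96% of all genes, and 0 higher, beside 6.28%. The median was -0.13 with 31 negative, while all genes had a median of -0.03. Pola2 stood at 11.01 at baseline, higher than on any other array, and was lower in untreated cells by -0.57 ± 0.10 (1.48-fold, limma adjusted p = 0.00208). Rfc2 stood at 9.96 and Chaf1b at 10.53, with -0.46 ± 0.11 and -0.41 ± 0.11 (limma adjusted p = 0.0186 and 0.0254). Tipin, also at 10.53, had -0.46 ± 0.14 and was not called (limma adjusted p = 0.0577).

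Markers of other cells also differed from baseline. In untreated cells 3 of 14 macrophage and monocyte markers were higher (Lyz2 by 2.13, Cd68 and Cybb), as were 2 of 5 NK cell, 1 of 2 CD8 T cell and 1 of 6 dendritic cell markers. Lower were 3 of 7 B cell markers (Ms4a1 by -1.44, Cd22 and Pax5) and all 3 erythroid and platelet markers, with a median of -0.68. None of 6 CD4 T cell and 6 neutrophil markers was called. The mean per array of the macrophage markers was 6.73 at baseline and 6.98 and 7.08 untreated, that of the B cell markers 7.57 against 7.03 and 7.09, and that of the erythroid and platelet markers 8.34 against 7.22 and 7.36. Their part in the 3 calls was not tested. With the mean of the macrophage markers in the model 0 genes were called. That covariate separates the same arrays as the number run, and baseline is 1 array, so this fit cannot decide their part. Under all alternatives run, Pola2 stayed between -0.64 and -0.50, Rfc2 between -0.50 and -0.42 and Chaf1b between -0.44 and -0.31.

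The baseline values of Rfc2, Chaf1b and Tipin fell within or at the edge of the range of arrays numbered 2 to 4. Over all 46 genes, baseline was nearer to the IL-12 2 h mean of numbers 2 to 4 than to the untreated mean in 33. It lay within the range of arrays numbered 2 to 4 in 26 genes and within that of the other arrays numbered 5 to 8 in 18. These counts were not made over all genes, and the ranges span unequal numbers of arrays. Across all genes baseline also correlated better with numbers 2 to 4 (median r 0.993 against 0.989). It lay above both untreated arrays in 25 genes, beside 43.9% of all genes, and below both in 11, beside 31.7%. Baseline lay below every other array in Ccne2 (10.09), Pold1 (10.48), Mcm10 (10.45) and E2f1 (10.26). Of the 3 genes called, Pola2 kept its call when either untreated array was left out, and Rfc2 and Chaf1b lost theirs each time. Without the run term 0 of the 46 genes were called against baseline, and with the title number as a random replicate block 5 were (Pola2, Rfc2, Ccne1, Chaf1b and Tipin).

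Of 71 other genes of the same pathway, 69 were measured. With IL-12 for 2 h and for 8 h against untreated cells 0 of them were called. Before adjustment (limma p under 0.05), 1 was higher and 1 lower at 2 h, beside 2.73% and 2.19% of all genes. At 8 h 8 were higher and 3 lower, beside 7.06% and 7.48%. Between 8 h and 2 h of IL-12, 7 rose and 6 fell, beside 6.27% and 6.36% of all genes. Those with the smallest p among the risers were Ccnd3, a cyclin D gene (0.33 ± 0.05, limma adjusted p = 0.000983), Cdkn1b, the gene of the cyclin-dependent kinase inhibitor p27 (0.55 ± 0.10, limma adjusted p = 0.0021), Cad of pyrimidine synthesis (0.35 ± 0.06, limma adjusted p = 0.00226) and the helicase gene Recql4 (0.26 ± 0.05, limma adjusted p = 0.00433). Among those that fell they were Myc, a growth regulator (-0.69 ± 0.12, limma adjusted p = 0.0013), E2f3 (-0.32 ± 0.06, limma adjusted p = 0.00234), the nuclease gene Dna2 (-0.26 ± 0.05, limma adjusted p = 0.00551) and the CTP synthase gene Ctps (-0.31 ± 0.07, limma adjusted p = 0.00876). Of 22 G1/S regulators 3 were higher and 3 lower, beside the same shares of all genes.

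Beside the replication genes, 12 of 25 measured G2/M and mitosis genes were higher at 8 h than at 2 h of IL-12 and 0 were lower, with a median of 0.19. The shares of all genes were 6.27% and 6.36%. Their medians within numbers 2 to 4 and 5 to 8 were 0.20 and 0.14, against 0.13 and -0.03 for the replication genes. Between the number runs 2 G2/M genes were higher and 3 lower, with a median of -0.04 against 0.16 for the replication genes. Whether the 2 lists differ was not tested.

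For the change from 2 h to 8 h of IL-12, 4 of the other pathway genes differed between the runs. Of these, 2 were more positive and 2 more negative in numbers 2 to 4, beside 0.972% and 0.987% of all genes. Myc stood at 12.79, 12.82, 12.71, 12.67 and 12.70 in IL-12 2 h arrays 2, 3, 4, 5 and 6 and at 11.65, 11.82, 12.39 and 12.41 in IL-12 8 h arrays 2, 3, 5 and 6. Its fall was deeper in numbers 2 to 4, with an interaction of -0.76 ± 0.11 (limma adjusted p = 0.00479). Cdk6, a kinase partner of cyclin D, had -0.51 ± 0.10 (limma adjusted p = 0.0244), Cdkn1b 0.57 ± 0.13 (limma adjusted p = 0.0395) and Rbl2, a gene of the retinoblastoma family, 0.74 ± 0.16 (limma adjusted p = 0.0377).

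Between the number runs 15 of the 69 other pathway genes were higher in numbers 2 to 4 and 8 were lower, beside 11.8% and 12.5% of all genes. The smallest p belonged to Dctpp1, an enzyme that removes dCTP (0.78 ± 0.05, limma adjusted p = 9.12e-07), which stood at 10.14 to 10.31 in numbers 2 to 4, at 9.34 to 9.58 in numbers 5 to 8 and at 10.36 in baseline. Tyms, the thymidylate synthase gene (0.31), Skp2, of a ubiquitin ligase that acts on p27 (0.31), and Rpa3, the small RPA subunit (0.52), were higher too, with limma adjusted p of 0.00148 to 0.00174. Ticrr, an origin firing gene (-0.44), E2f5 (-0.66), Pole4 (-0.36) and Rb1 (-0.30) were lower, with limma adjusted p of 0.000124 to 0.00491. Against baseline, Dctpp1 (-0.87), Dna2 (-0.63), Ccnd3 (-0.34) and the licensing inhibitor gene Gmnn (-0.60) were lower in untreated cells and Pole4 (0.55), E2f5 (0.92) and Tfdp2 (0.52), a partner of E2F factors, were higher, with limma adjusted p of 8.55e-05 to 0.044.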

How the data were processed

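The deposited values are intensity, linear and not logged, for each probe set on each array. They were made with RMA, which corrects background and brings all arrays to a shared distribution, and with Affymetrix Power Tools, per the submitters' processing notes; the version, the probe annotation and the genome build are not given in the sources used. Array medians lay between 160.6 and 167.3. Of the per-sample value columns, 0 were left unused.

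From the deposited intensities, log2 values were computed and not normalized again. A gene was represented by its brightest probe set. All 12 arrays entered 1 linear model of 4 group means and a number run term (lmFit and eBayes, limma 3.58.1 in R 4.3.3, 7 residual and 6.84 prior degrees of freedom; 5 and 7.61 for the interaction over 9 arrays), tested two-sided with Benjamini-Hochberg adjustment over all genes. The baseline array informs only its own group mean. The fit was tested on simulated data. Plots were drawn with matplotlib 3.10.9.

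The 46 genes, the other lists, the tests and the alternatives were chosen with earlier results of these data known. Values in the arrays compared are given for at most 8 called genes per comparison and direction. They are also given for the 4 with the smallest p where fewer than 4 were called. The baseline value is left out for most genes not called against baseline. At most 4 other pathway genes per direction are named.

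Deviations from the group means of same-numbered 2 h and 8 h arrays correlated across genes at 0.365, 0.300, 0.519 and 0.372 for numbers 2, 3, 5 and 6. By the rule used this pairs them, but these values still hold the run difference and so cannot show pairing by number. With the run means removed too, the correlations were -0.264, -0.177, 0.0255 and 0.0255. The value is the same for numbers 5 and 6 because the deviations of 2 arrays per group mirror each other. Beside the run term the consensus correlation within a title number was -0.136. RefSeq promoter windows (GRCm38.p6) were matched by symbol. Ccne2, Gins1, Gins2, Mcm4, Pole, Prim2, Rfc2 and Tipin were not matched. The number of arrays limits the precision.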

Additional observations from a re-analysis of the deposited data

How the results depend on the processing

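Counts are of the 46 genes called by limma. For 8 h against 2 h of IL-12 the count of 6 became 10 with arrays centred on their medians, 3 with the mean of the macrophage markers as a covariate, 1 with the title number as a fixed replicate block, 1 without the run term, 10 in numbers 2 to 4 alone and 0 in numbers 5 to 8 alone, and 3 to 6 with 1 array left out. The random replicate block gave 5 and changed no other count here by over 1.5 times, except against baseline. There the count of 3 became 5 among genes brighter than the median gene, 5 with the random replicate block, 0 with the macrophage covariate, 0 without the run term and 2 with either untreated array left out. Between the number runs 23 became 0 with the macrophage covariate and 15 to 24 with 1 array left out. The interaction went from 0 to 1, Pola1, among the brighter genes, with an intensity trend and robust prior, and with the macrophage covariate, and to between 0 and 2 with 1 array left out. Both comparisons with untreated cells gave 0 under all alternatives run. The causes were not tested. Of 564 values of single named genes under these alternatives, 490 kept their side of the threshold, 64 lost the call, 10 gained it and 0 changed direction. Rfc2 at 8 h against 2 h lost its call under 16 of 22 alternatives, with adjusted p from 0.0256 to 0.686. The fixed block was run only where title numbers are shared by the groups compared. With 2 untreated arrays and 1 baseline array, small differences are not detectable here.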
